A study of Mus musculus with 8 samples.

Results

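The sites lost after deletion of Hdac1 are 3254 stretches of open chromatin, of 112431 mapped in dendritic cells of mouse spleen. A site is a group of ATAC-seq summits, the points of highest signal within called peaks, that lie within 250 bp of each other in any library. A site was called lost in a cell type when both control libraries of that type had a summit in it, neither deleted library had one, and no summit of a deleted library lay within 1 kb. The rule was met by 1879 sites in type 1 conventional dendritic cells (cDC1) and by 1425 in type 2 cells (cDC2), with 50 sites in both. The members were thus chosen by the presence of summits in these WT and KO libraries, so the counts and the values behind them are descriptions and were not tested.

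ATAC-seq marks open chromatin by the places where the Tn5 transposase can insert sequencing adapters. Splenic cDC1 were sorted as lineage-negative, CD11c+, MHCII+, CD64-, XCR1+ and CD11b-, and cDC2 by the same gates but XCR1- and CD11b+. All mice had received poly I:C to recombine a floxed Hdac1 gene, and the cells were sorted 2 weeks later. The control groups (HDAC1 floxed, called WT) name no Cre in their label, the deleted groups (HDAC1 Mx1-Cre, called KO) carried Mx1-Cre, and each genotype had 2 libraries of either cell type. Mx1-Cre is driven by an interferon-responsive promoter and acts in blood progenitors, in mature blood cells and in other interferon-responsive tissues, so the deletion was not limited to dendritic cells. Poly I:C, which sets off interferon, was given to both genotypes. The labels do not say whether libraries come from separate animals, nor give age, sex or the share of cells in which the gene was deleted.

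HDAC1 is a class I histone deacetylase that removes acetyl groups from histone tails. It works inside the NuRD, Sin3, CoREST and MiDAC complexes, which transcription factors bring to promoters and enhancers. Deacetylated histones are generally found in more compact chromatin. In dendritic cells, PU.1, IRF, RUNX and AP-1 family factors occupy many enhancers.

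The lists held 61737 to 96031 summits per library, and the 61737 best of each were kept so that all had the same length. Each summit carries the score of its peak, the negative log10 of a p-type value given by the authors' peak caller within that library. In cDC1 the weakest summit kept had a score of 4.93 and 4.95 in the WT and 4.53 and 7.21 in the KO libraries. In cDC2 it had 3.56 and 1.31 in the WT and 4.01 and 4.92 in the KO libraries. A summit with a score just under 7.21 was thus left out in replicate 2 of KO cDC1 and kept in every other library. Read depth is unknown, since the lists hold no read counts. In genes of cDC1 identity, the 4 cDC1 libraries had 160 to 175 sites and the 4 cDC2 libraries 125 to 135. In genes of cDC2 identity the numbers were 96 to 107 and 115 to 124, so both lists separated the cell types in the direction of the labels.

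Hdac1 itself (chromosome 4, 129516104 to 129542646, GRCm38) had no lost site. The site at its start (129542765 to 129542834) had a summit in all 8 libraries, with scores of 77.7 and 69.0 (WT) and 51.2 and 87.1 (KO) in cDC1. In cDC2 the scores were 35.2 and 37.3 (WT) and 54.1 and 54.4 (KO). The position of the floxed exons is not given, and a summit at the start does not report on their removal. The deletion was therefore not checked by these data.

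Lost sites at promoters are the members whose sequence can be read. The RefSeq table used here holds the 250 bases before and 50 bases after each start that it lists (GRCm38.p6). It does not list the starts of all genes. Only 38 of the 3254 lost sites touched such a window. Printed below, 5' to 3' on the strand of the gene, are 5 of them at protein-coding genes, with 1 lost in both cell types, 2 lost in cDC1 and 2 lost in cDC2. Each stretch ends where the gene's own span begins, and the capitals mark the bases between the summits of the WT libraries in which the site was called, as far as they fall in the stretch. Xlr3b is at chrX:73191929-73192149 on the + strand, Cd180 at chr13:102693297-102693546 (+), Sla2 at chr2:156887251-156887471 (-), Mmp12 at chr9:7344147-7344396 (+) and Fbp1 at chr13:62888299-62888532 (-).
Xlr3b: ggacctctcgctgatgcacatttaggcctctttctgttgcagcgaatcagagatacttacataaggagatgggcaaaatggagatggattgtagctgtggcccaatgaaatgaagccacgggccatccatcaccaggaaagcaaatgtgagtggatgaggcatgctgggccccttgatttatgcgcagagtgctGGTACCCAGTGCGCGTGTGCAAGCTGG
Cd180: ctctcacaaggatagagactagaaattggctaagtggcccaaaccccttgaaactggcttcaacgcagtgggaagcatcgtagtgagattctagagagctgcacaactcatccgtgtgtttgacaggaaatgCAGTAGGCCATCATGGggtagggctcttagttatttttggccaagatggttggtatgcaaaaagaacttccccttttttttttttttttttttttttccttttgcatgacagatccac
Sla2: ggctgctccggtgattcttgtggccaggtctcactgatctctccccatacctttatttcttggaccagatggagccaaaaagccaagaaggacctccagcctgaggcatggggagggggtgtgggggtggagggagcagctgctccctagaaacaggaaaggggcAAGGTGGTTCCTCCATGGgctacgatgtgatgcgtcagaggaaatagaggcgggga
Mmp12: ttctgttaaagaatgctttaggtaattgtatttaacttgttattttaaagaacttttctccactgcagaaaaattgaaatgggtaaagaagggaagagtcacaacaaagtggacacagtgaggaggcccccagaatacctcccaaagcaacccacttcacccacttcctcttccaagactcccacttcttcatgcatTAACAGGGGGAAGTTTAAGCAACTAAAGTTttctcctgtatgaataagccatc
Fbp1: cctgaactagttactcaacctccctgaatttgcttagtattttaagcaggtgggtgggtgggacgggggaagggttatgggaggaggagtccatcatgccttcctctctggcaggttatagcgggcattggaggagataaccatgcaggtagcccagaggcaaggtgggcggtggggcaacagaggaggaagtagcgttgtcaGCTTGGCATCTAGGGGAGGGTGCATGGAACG

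Xlr3b belongs to a family of near-identical X-linked lymphocyte genes, among which reads may not be told apart. Its site had scores of 6.88 and 8.19 in WT cDC1 and of 5.44 and 12.0 in WT cDC2. No KO library had a summit within 1 kb in its full list, so all WT libraries had a summit here and no KO library did. The stretch held none of the 7 motifs searched.

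Cd180 encodes a toll-like receptor relative that modulates responses to lipopolysaccharide. Its WT cDC1 summits lay 103 to 118 bases before the annotated start of the window printed, with scores of 10.3 and 8.41. The site was kept in neither KO cDC1 library. Both KO cDC1 libraries did have a weaker summit within 1 kb, at 3.70 and 6.24. Here and below, a weaker KO summit is one that ranked below those kept in its own library. In cDC2 the site was kept in all 4 libraries, at 6.23 and 9.75 in WT and 12.2 and 9.71 in KO.

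Sla2 encodes an adaptor that dampens receptor signalling in lymphocytes. Its site was lost in cDC1, where WT scores were 6.61 and 7.38, and replicate 1 of KO cDC1 had a weaker summit of 3.85 in its full list. In cDC2 it was present in WT at 7.95 and 7.60 and in KO at 9.28 and 6.05. The capitals contain 1 of the 2 matches to GAGGAA, the core read by PU.1 and related ETS factors, on the opposite strand.

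Mmp12, the macrophage elastase, and Fbp1, a gluconeogenic enzyme, had sites lost in cDC2. The Mmp12 site had scores of 4.76 and 3.57 in WT cDC2. It was also present in cDC1, at 8.86 in replicate 2 of WT and at 4.63 and 14.3 in KO. The Fbp1 site had scores of 4.48 and 2.91 in WT cDC2 and was kept in no cDC1 library. The 4 WT cDC2 scores lie near the bottom of their lists. In the full list of replicate 2 of KO cDC2 both had a summit within 1 kb, at 4.62 for Mmp12 and 2.76 for Fbp1. Both are under the lowest score kept in that library, 4.92, while replicate 2 of WT cDC2 kept scores down to 1.31.

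The first question is how many sites go missing with the deletion, beside how many differ between the same libraries when they are grouped without regard to genotype. In cDC1, 1879 of the 50515 sites found in both WT libraries were lost (3.72%). The opposite rule, found in both KO libraries and in no WT library, gave 2053 gained sites (4.15% of 49483). Pairing each WT library with a KO library gave 1186, 1510, 1549 and 1192 sites found on 1 side only (2.41%, 3.06%, 3.13% and 2.43% of the sites of that side). At this list length the count of lost sites in cDC1 lay above the 4 mixed counts and below the count of gained sites.

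In cDC2, 1425 of 48268 sites were lost (2.95%), and 2082 were gained (4.22% of 49322). The mixed pairings gave 1458, 1236, 1387 and 1123 sites (2.96%, 2.61%, 2.87% and 2.34%). The number of lost sites in cDC2 therefore lay inside the range of the mixed pairings, with 1 of the 4 above it. With 30868 summits kept per library, the lost sites numbered 1121 in cDC1 against 591 to 668 in the mixed pairings, and 900 in cDC2 against 642 to 716. With only the site itself searched for KO summits, they numbered 2561 against 1628 to 1876 in cDC1 and 2153 against 1674 to 2014 in cDC2. With all deposited summits they lay inside the mixed range in both cell types, at 1069 against 596 to 3183 in cDC1 and 780 against 653 to 2165 in cDC2. The same held with scores of at least 5 (1073 against 491 to 2814, and 632 against 621 to 1784) and with no KO summit allowed within 5 kb (916 against 666 to 950, and 834 against 706 to 865). It also held with KO summits searched in the full lists (358 against 152 to 580, and 657 against 476 to 1025). An excess of lost sites over the mixed pairings thus depended on the setting in both cell types.

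**Figure D1:**
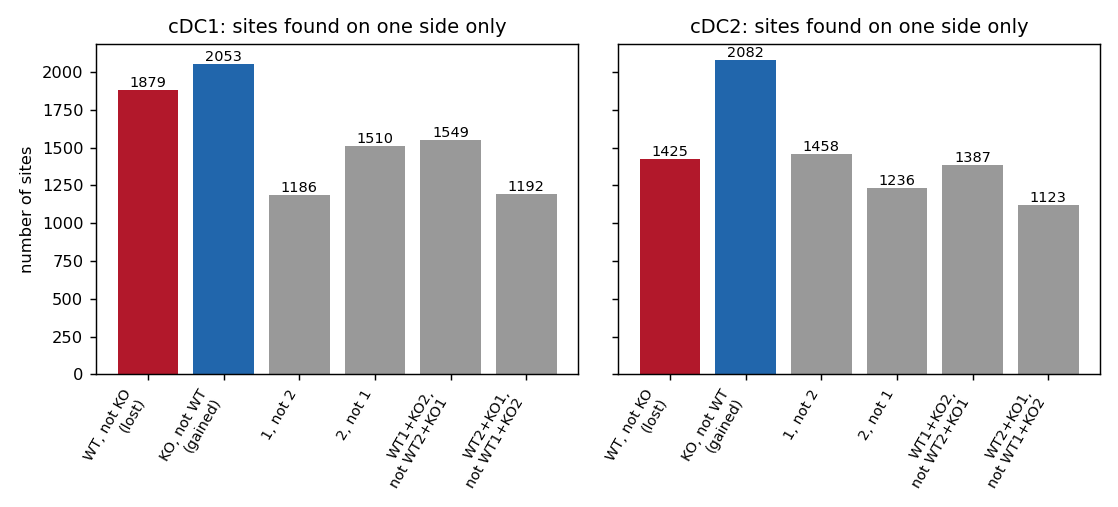
Number of sites (vertical axis) found in both libraries of 1 side and in neither library of the other, with no summit of the other side within 1 kb, in cDC1 (left) and cDC2 (right). Red bars are lost sites (1879 and 1425), blue bars gained sites, and grey bars the mixed pairings (1186 to 1549 in cDC1, 1123 to 1458 in cDC2); 1 and 2 are replicate numbers.

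The 1 kb rule removed 682 further sites in cDC1 and 728 in cDC2, which had no KO summit of their own but had one nearby. The nearest KO summit lay 1001 bp from the closest member and 1000 bp from the farthest site removed in cDC1, and 1003 and 997 bp in cDC2. Within 100 bp of that limit were 51 members and 52 removed sites in cDC1, and 31 and 28 in cDC2. The median distance from a member to the nearest KO summit was 4.83 kb in cDC1 and 6.25 kb in cDC2.

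Lost sites were weak sites. Summits were ranked within each library, with a percentile of 100 for the best of those kept. The median percentile of the members was 20.8 and 21.3 in WT cDC1 and 20.4 and 22.1 in WT cDC2. Sites found in all 4 libraries of the cell type had medians of 65.1 and 65.0 in WT cDC1 and of 65.7 and 65.6 in WT cDC2. Between 93.6% and 95.8% of the members lay below percentile 50. Median scores of the members were 7.05 and 7.24 in WT cDC1, close above the lowest score kept there.

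The share of WT sites that met the rule fell with rank. Among cDC1 sites whose weaker WT summit was below percentile 20, 14.1% were lost. The shares were 4.85%, 0.774% and 0.047% in the next 3 steps of 20, the last being 5 sites, and no site above percentile 80 was lost. In cDC2 the shares were 11.4%, 3.996% and 0.620%, followed by 2 sites between percentiles 60 and 80 and 1 site above 80, at Hnrnpu. Low rank thus moved with loss in both cell types. The rule itself favours this, since a weak summit drops more easily out of a list of fixed length. Ranks of gained sites and of the mixed pairings were not read, so weakness cannot be called particular to lost sites. The part of rank in the counts was not tested.

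**Figure D2:**
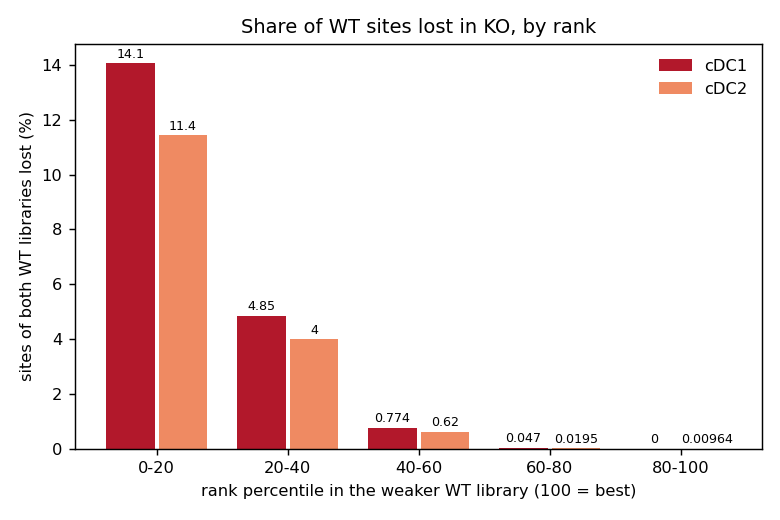
Percentage of sites with a summit in both WT libraries that were lost (vertical axis), by the rank percentile of the site in the weaker WT library (horizontal axis, 100 is best), in cDC1 (red) and cDC2 (orange). Nearly all losses sit in the 2 weakest steps, from 14.1% at the lowest step of cDC1 to 0 at the highest.

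Many lost sites had a KO summit within 1 kb that fell below the number kept. In cDC1, 358 of the 1879 members had no summit within 1 kb in the full list of either KO library, 988 had one in a single KO library and 533 in both. By library, 34.6% of the members had such a summit in replicate 1 of KO cDC1 and 74.7% in replicate 2, the library with the longest list. In cDC2, 657 of 1425 members had no summit in either full list, 594 had one in a single library and 174 in both. The shares were 25.3% and 40.8% in the KO cDC2 libraries. At 533 and 174 sites both KO libraries thus had a summit below the kept rank, in the site or within 1 kb of it. At 358 and 657 sites neither KO library had a called summit within 1 kb. The lists hold no peak extents, so a called peak with its summit farther away could still cover such a site.

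The other cell type gives a reading that the rule did not use. Of the sites lost in cDC1, 36.7% and 33.2% had a summit in the WT cDC2 libraries and 33.5% and 29.5% in the KO cDC2 libraries. The 2 genotypes overlapped, and the difference of 3.46 percentage points did not pass a 2-sided exact permutation test over libraries (p = 0.667, n = 2 against 2). Of the sites lost in cDC2, 37.8% and 40.4% had a summit in WT cDC1 and 34.2% and 34.4% in KO cDC1. Both WT libraries were above both KO libraries, by 4.77 percentage points on average (exact permutation p = 0.333). That is the smallest p that 2 against 2 libraries allow, so this design cannot pass 0.05, and adjusted over both tests p was 0.667 for each in the exact permutation test. These p-values measure only the spread between the libraries, and libraries of the 2 cell types with the same number may share an animal.

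The same reading of other site groups gives a scale for these differences. Gained sites had differences of 8.33 points (chosen in cDC1) and 8.19 points (chosen in cDC2) toward their own direction. Pairings of a WT with a KO library gave -0.563 to 2.40 points in cDC1 and 0.171 to 2.96 points in cDC2. The differences of the lost sites were larger than those of the mixed pairings and smaller than those of the gained sites at this list length. They turned direction with all deposited summits, to -0.608 points (cDC1-lost) and -2.69 points (cDC2-lost), and the first also with scores of at least 5 (-0.699). In 2 of the 4 mixed groups chosen in cDC2 the libraries did not overlap either. These differences were not tested against each other.

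**Figure D3:**
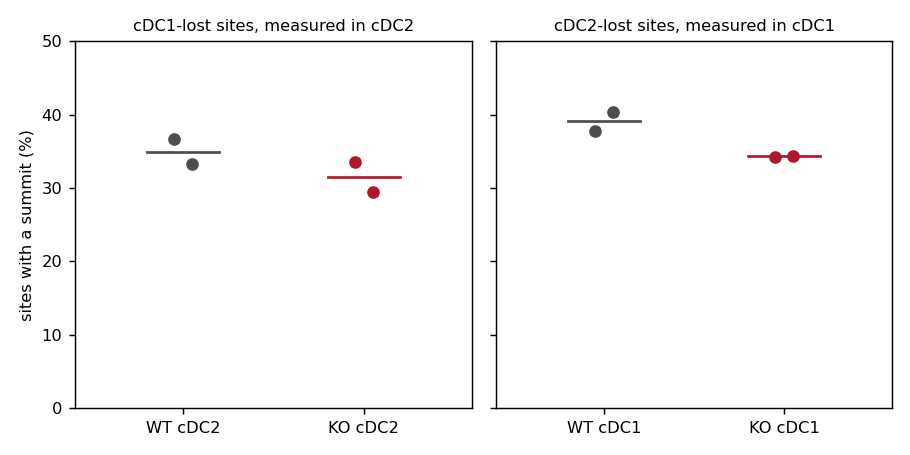
Percentage of lost sites with a summit in each library of the other cell type (vertical axis), for cDC1-lost sites read in cDC2 (left) and cDC2-lost sites read in cDC1 (right); points are libraries and lines the mean of 2. WT and KO overlap on the left, and on the right the WT libraries (37.8% and 40.4%) lie above the KO libraries (34.2% and 34.4%).

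Lost sites were found in the other cell type less widely than WT sites as a whole. Of the cDC1-lost sites, 921 (49.0%) had no summit in any cDC2 library, against 15.9% of all sites found in both WT cDC1 libraries. A further 299 (15.9%) had a summit in all 4 cDC2 libraries, against 63.2%. Of the cDC2-lost sites, 600 (42.1%) had no cDC1 summit, against 10.7%, and 266 (18.7%) had one in all 4 cDC1 libraries, against 65.4%. These shares were not matched on rank. Sites called by the mixed pairings had a summit in a library of the other cell type at similar shares. Those were 33.0% to 46.8% (chosen in cDC1) and 33.2% to 41.9% (chosen in cDC2). For lost sites they were 29.5% to 36.7% and 34.2% to 40.4%. The comparison with all WT sites thus does not set lost sites apart from other sites found on 1 side only.

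The 50 sites lost in both cell types are 2.66% of the cDC1-lost and 3.51% of the cDC2-lost sites. By the same rule 79 sites were gained in both, and the mixed pairings gave 19 to 25. Under other settings the count lay inside the mixed range, at 11 against 8 to 69 with all deposited summits and 21 against 8 to 57 with scores of at least 5. It was also inside, at 16 against 11 to 18 with the 5 kb distance and 5 against 1 to 12 with the full KO lists. Sites that went opposite ways numbered 29 lost in cDC1 and gained in cDC2, 22 gained in cDC1 and lost in cDC2, and 15 to 21 in the mixed pairings. In the full lists, 5 of the 50 had no summit in any of the 4 KO libraries. The others had a summit below the kept rank within 1 kb in 1 (15 sites), 2 (20 sites), 3 (9 sites) or all 4 KO libraries (1 site).

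The site with the highest mean rank among the 50 lies inside Mrpl38 (chromosome 11, 116136401 to 116136478), a gene for a mitochondrial ribosomal protein. Its scores were 10.7 and 13.0 in WT cDC1 and 18.5 and 11.2 in WT cDC2. No KO library had a summit within 1 kb in its full list. Like the Xlr3b site, whose sequence is given above, it had a summit in all 4 WT libraries and in no KO library at any score deposited.

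At other sites lost in both cell types, KO libraries did hold a summit below the kept rank within 1 kb. The site inside Nedd9 (chromosome 13, 41374318 to 41374456), an adhesion scaffold, had scores of 13.0, 13.5, 15.7 and 3.97 in the WT libraries of cDC1 and cDC2. Both KO cDC1 libraries had a weaker summit within 1 kb, at 4.42 and 3.87, and the KO cDC2 libraries had none. The site nearest to Itpr1 (chromosome 6, 108555049 to 108555133), an intracellular calcium release channel, had WT scores of 10.1, 14.5, 6.25 and 6.70, and a summit of 4.34 in 1 KO library. The site nearest to Socs5 (chromosome 17, 87143266 to 87143361), of the suppressor of cytokine signalling family, had WT scores of 8.74, 12.4, 6.44 and 5.81. The 2 KO cDC1 libraries had 3.96 and 7.01 within 1 kb of the Socs5 site, the second of them just under the lowest score kept in that library.

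The site nearest to Slc2a3 (chromosome 6, 122724726 to 122724839), the glucose transporter GLUT3, had WT scores of 8.47, 8.77, 11.0 and 4.27. The site inside Cyp51 (chromosome 5, 4081729 to 4081762), an enzyme of cholesterol synthesis, had 7.60, 7.51, 8.06 and 6.94. The site nearest to Hells (chromosome 19, 38928418 to 38928557), a chromatin remodeller needed for DNA methylation, had 9.57, 8.61, 6.97 and 14.4. The site inside Cdk13 (chromosome 13, 17795346 to 17795406), a kinase of RNA polymerase II, had 6.67, 9.73, 14.4 and 4.02. At each of these 4 genes at least 1 KO library held a weaker summit in its full list. The other named sites of this group lay at Gpr155, Calcrl, Nars, Bmper, Hpcal1, Bean1 and Snx24, or had no protein-coding gene within 50 kb.

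The strongest cDC1-lost sites without any summit in the full KO cDC1 lists were led by a site within 1 kb of an end of Zeb1 (chromosome 18, 5591358), a zinc finger repressor. Both WT cDC1 libraries had their summit at the same base there, with scores of 18.3 and 21.1, and no cDC2 library had one. The site nearest to N4bp1 (chromosome 8, 86810895 to 86810927), a regulator of inflammatory signalling, had 21.6 and 18.1 in WT cDC1 and was kept in all 4 cDC2 libraries at 18.9 to 31.8, KO included. Sites inside Scp2 (15.3 and 23.7), a sterol carrier, and Tfeb (14.4 and 16.4), a regulator of lysosome genes, followed. Those at Gm5861 (14.2 and 14.4), Hivep2 (13.9 and 14.8), Cnot1 (15.2 and 14.1), Acadl (11.7 and 12.1) and Tep1 (11.3 and 12.0) had no summit in any cDC2 library.

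Several of the strongest cDC2-lost sites were also strong in cDC1 libraries. The site inside Hnrnpu (chromosome 1, 178336603 to 178336645), an RNA-binding nuclear scaffold, had 35.3 and 33.5 in WT cDC2 and no summit in KO cDC2. In cDC1 it had 41.1 in replicate 2 of WT and 56.8 in replicate 2 of KO, and was not kept in either replicate 1. The site inside Lemd3 (chromosome 10, 120977907 to 120978260), an inner nuclear membrane protein, had 22.1 and 14.1 in WT cDC2, 9.66 in replicate 2 of WT cDC1 and 17.2 in replicate 1 of KO cDC1. At these 2 genes the summit thus came and went between libraries of the same genotype in cDC1.

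The site inside Fbxl5 (chromosome 5, 43765706 to 43765774), an iron-sensing ubiquitin ligase subunit, was kept in all 4 cDC1 libraries, at 23.8 and 16.8 in WT and 26.0 and 32.0 in KO, and had 14.6 and 17.1 in WT cDC2. Sites at Matn2 (20 and 10.4), Ascc3 (10.1 and 9.14) and Stk38l (10.5 and 8.41) had no summit in any cDC1 library, and the Camta1 site (12.1 and 8.72) had one, of 4.67, only in the full list of replicate 2 of KO cDC1. At Fbxl5 the summit was thus missing from the 2 KO cDC2 libraries alone, and the difference between the cell types was not tested.

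Few of the sites that passed the 1 kb rule lay near the ends of genes. Of the members, 86 cDC1-lost sites (4.58%) and 68 cDC2-lost sites (4.77%) fell within 1 kb of either end of a protein-coding gene, against 21.9% and 23.1% of all sites found in both WT libraries. Among those whose weaker WT summit was below percentile 50 the shares were 9.62% and 11.2%. Gained sites had 9.06% and 7.93%, and the mixed pairings 4.84% to 8.85% in cDC1 and 4.77% to 8.73% in cDC2. The share of the lost sites thus lay at or just below the low end of the mixed pairings, which passed the same rule. The groups of WT sites did not have to pass it. When only the site itself was searched for KO summits, 10.4% of the cDC1-lost and 13.1% of the cDC2-lost sites lay near a gene end, above the weaker-ranked WT sites. Inside genes were 55.7% and 55.3% of lost sites, and outside genes 39.8% and 39.9%.

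**Figure D4:**
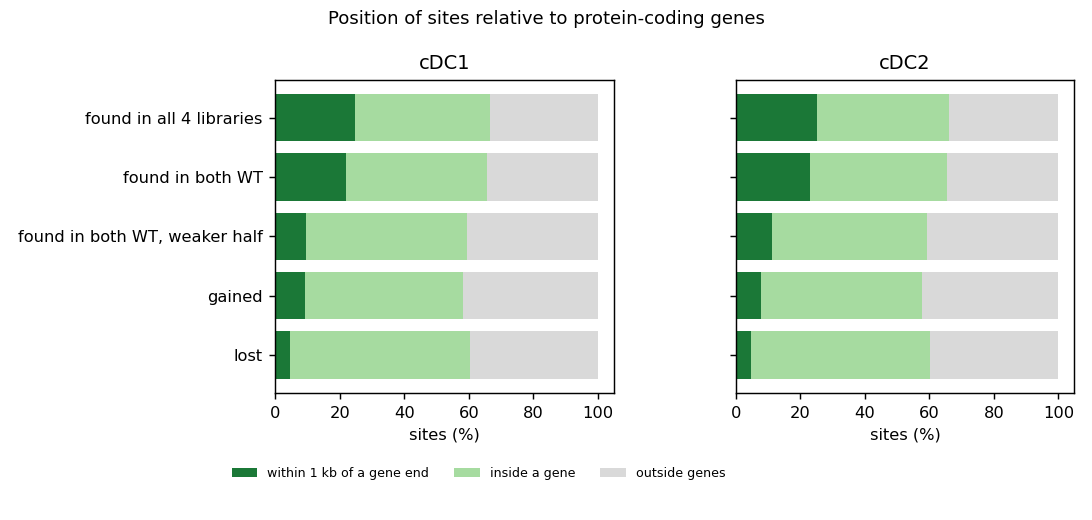
Percentage of sites (horizontal axis) within 1 kb of a protein-coding gene's end (dark green), inside a gene (light green) and outside genes (grey), for groups of sites in cDC1 (left) and cDC2 (right). Lost sites have the smallest dark green share, 4.58% and 4.77%, beside 9.62% and 11.2% in the weaker-ranked WT sites, which did not have to pass the 1 kb rule; without that rule the lost shares are 10.4% and 13.1%.

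The median distance to a listed start was 20.4 kb for cDC1-lost and 22.9 kb for cDC2-lost sites, against 13.6 and 13.3 kb for all sites of both WT libraries. Starts missing from the table make such distances too long in every group. By chromosome the share of WT sites lost ranged from 3.06% (chromosome 11) to 5.67% (X) in cDC1, and from 2.29% (chromosome 11) to 3.60% (chromosome 12) in cDC2. The Y chromosome held no lost site. In cDC1, 313 of 1879 lost sites had their next lost neighbour within 100 kb. The number was 284 of 2053 for gained sites and 113 to 168 in the smaller mixed groups. In cDC2 it was 158 of 1425 for lost sites, 332 of 2082 for gained sites and 98 to 208 in the mixed groups. These numbers were not adjusted for the size of the groups.

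The 41 promoter windows touched by a lost site, of 38 genes, resembled the average window more than the usual open promoter. Their median GC content was 54.7% and their median number of CpG dinucleotides 7, against 52.7% and 7 in all 32851 windows. Windows with a site found in all 8 libraries had 62.3% and 23, and windows with a gained site 58% and 13. By cell type the median GC content was 50.3% in cDC1-lost and 56.7% in cDC2-lost windows. The GC box GGGCGG, read by SP factors, stood in 31.7% of the windows with a lost site, in 35.7% of all windows and in 70.9% of those open in all 8 libraries. Its shares were 20% in cDC1-lost, 39.1% in cDC2-lost and 58.7% in gained windows.

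Motifs were searched on both strands of these 300 base windows. The ETS core GAGGAA was found in 17 of the 41 windows (41.5%), against 28.3% of all windows and 26.3% of those open in all libraries. It stood in 50% of 20 cDC1-lost, 34.8% of 23 cDC2-lost and 32.3% of 167 gained windows. The RUNX core TGTGGT was found in 10 windows (24.4%), against 16.8% and 11.9%. Its shares were 30% in cDC1-lost, 17.4% in cDC2-lost and 15.6% in gained windows. The AP-1 motif TGANTCA was found in 3 windows (7.32%, against 7.81% of all), the C/EBP motif TTGCNNAA in 5 (12.2%, against 10.8%), the E-box CACGTG in 3 (7.32%, against 7.15%) and the repeat of the interferon-stimulated response element in 2 (4.88%, against 3.44%). Several windows share a gene, a window may hold more than 1 motif, and a match of letters does not show a bound factor.

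Of the 3254 lost sites, 2818 had a protein-coding gene within 50 kb, spread over 2267 genes. Of all 112431 sites, 99128 had such a gene, over 16672 genes. A single lost site was nearest to 1856 of these genes, 311 genes had 2 and 100 had 3 or more. A gained site was also nearest to 665 of the 2267 genes. The share of all 16672 genes with a gained site was not counted, so this overlap has no background here. With the limit at 10 kb there were 2307 sites and 1888 genes, 77 of them with 3 or more. The 10 genes with most lost sites held many sites of any kind, 25 to 117 each.

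Arid1b, a subunit of the BAF chromatin remodelling complex, had the most lost sites, 2 in cDC1 and 5 in cDC2, of 58 sites in all. In cDC1 it had 34 and 32 sites in WT and 29 and 30 in KO, and in cDC2 it had 38 and 35 in WT and 32 and 29 in KO. The WT libraries were above the KO libraries in both cell types. Choosing this gene and the others below by their lost sites favours that direction. Pde7b, a cyclic AMP phosphodiesterase, had 6 lost sites. It held 17 and 17 sites (WT) and 10 and 13 (KO) in cDC1, and 15 and 16 (WT) and 13 and 12 (KO) in cDC2.

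Tbl1xr1, a subunit of the NCoR and SMRT corepressor complexes that carry HDAC3, had 1 site lost in cDC1 and 5 lost in cDC2, of 35, and none gained. Its sites per library numbered 13 and 13 (WT) and 10 and 9 (KO) in cDC1, and 19 and 15 (WT) and 11 and 10 (KO) in cDC2. These counts include the lost sites by which the gene was chosen. The 5 cDC2-lost sites had scores of 8.82 and 5.60, 6.03 and 4.38, 10.6 and 6.16, 4.96 and 2.31, and 7.19 and 6.51 in the WT libraries. The second of these had a weaker summit of 4.20 and the fourth had summits of 3.10 and 4.51 in the full KO cDC2 lists. The lost sites at 22130924 to 22131010 and at 22173419 to 22173465 (chromosome 3) had no summit in the full KO cDC2 lists. They had none in any cDC1 library either, WT or KO, so they were found in WT cDC2 alone.

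Foxp1, a forkhead repressor, had 5 lost and 6 gained sites, and its WT and KO libraries overlapped, with 60 and 66 sites (WT) and 64 and 62 (KO) in cDC1, and 71 and 58 (WT) and 66 and 62 (KO) in cDC2. Snx29 had 6 lost sites, Lpp, Nav2 and Sh3kbp1 5 each, and Ano6 and Arhgap26 4 each, beside 1 or 2 gained sites at each. Among these 10 genes Tbl1xr1 was the single one without a gained site.

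**Figure D5:**
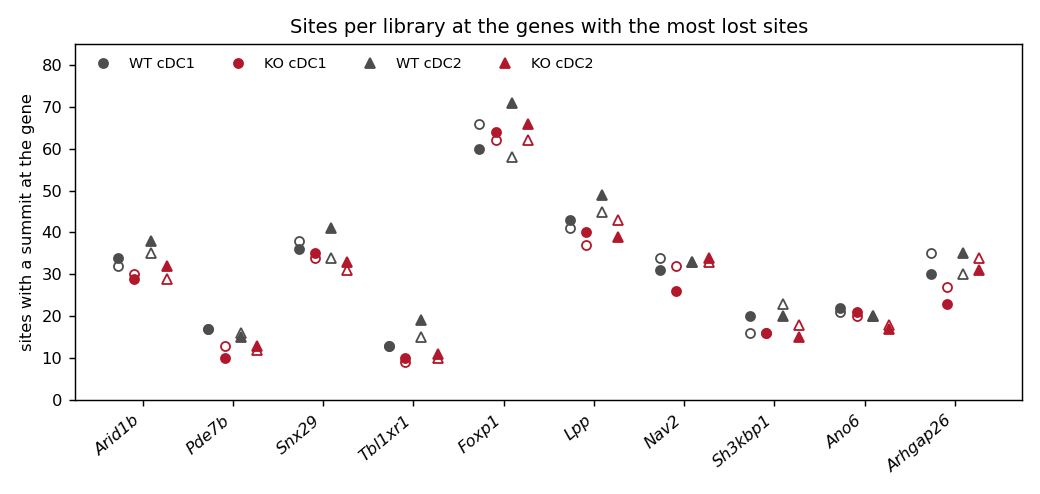
Number of sites with a summit (vertical axis) at the 10 genes with the most lost sites, per library; grey is WT, red is KO, circles are cDC1, triangles are cDC2, filled symbols are replicate 1 and open symbols replicate 2. At Tbl1xr1 the cDC2 libraries hold 19 and 15 sites in WT and 11 and 10 in KO, while at Foxp1 WT and KO overlap. The genes were chosen by their lost sites, which favours WT above KO.

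Gene lists show where lost sites fell among genes of known role, and each count is read against the background of 3.72% in cDC1 and 2.95% in cDC2. In the list of histone deacetylases and their complexes, 5 of 185 sites found in both WT cDC1 libraries were lost (2.70%) and 9 of 188 in cDC2 (4.79%), of which 5 were those of Tbl1xr1. The others were at Hdac4, Hdac9, Mbd2, Mier1, Mier3 and Tbl1x. The gained sites of this list numbered 5 and 4. In cDC1 the Mier1 site, at a partner of HDAC1 in the MIER complex, had 10.9 and 7.79 in WT and no summit in the full KO lists. Of the acetyltransferases and bromodomain readers, 2 of 73 and 3 of 66 sites were lost, at Ncoa1, Ncoa2, Kat6a and Crebbp.

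Genes of cDC1 identity lost sites at shares near the background. Of that list, 5 of 147 sites were lost in cDC1 (3.40%) and 4 of 104 in cDC2 (3.85%). In cDC1 these included 2 sites inside Wdfy4, which is needed for cross-presentation, with 6.22 and 7.03 and with 5.71 and 5.52. The first of them had a weaker summit of 4.74 in replicate 2 of KO cDC1. The site inside Gcsam had 9.27 and 8.80 in WT cDC1, and both KO cDC1 libraries had a weaker summit, at 4.12 and 6.56. The site inside Flt3, the receptor that drives dendritic cell development, had 5.76 and 5.24 in WT cDC1 and 4.23 and 6.27 below the kept rank in KO. At Gcsam and Flt3 both KO cDC1 libraries thus had a summit below the kept rank, in the site or within 1 kb of it.

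Of the cDC2 identity list, 5 of 87 sites were lost in cDC1 (5.75%) and 1 of 92 in cDC2 (1.09%). The site near the end of Clec4a4 (chromosome 6, 122990106 to 122990306), a lectin receptor of cDC2, had only 5.03 and 8.19 in WT cDC1. In cDC2 it was among the stronger sites, at 38.0 and 28.7 in WT and 30.5 and 39.8 in KO. In cDC1 both KO libraries had summits below the kept rank within 1 kb, at 3.87 and 6.09. The other sites of this list lost in cDC1 lay at Notch2 (5.80 and 10.2), a receptor for Notch ligands, at Tbx21 (5.67 and 7.14), a transcription factor of cDC2 subsets, and at Rbpj, the DNA-binding partner of Notch, with 2 sites. Each of the 4 had a weaker summit in the full list of at least 1 KO cDC1 library.

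Of 33 dendritic cell transcription factors, 9 of 284 sites were lost in cDC1 (3.17%) and 7 of 292 in cDC2 (2.40%). The site inside Ikzf1 (chromosome 11, 11691878 to 11691924), which encodes Ikaros, had 11.7 and 11.5 in WT cDC1, and weaker summits of 4.36 and 6.76 in the full KO cDC1 lists. In cDC2 it had 14.2 and 4.60 in WT and 9.45 and 17.3 in KO. The site inside Spi1 (chromosome 2, 91091635 to 91091739), the gene of PU.1, had 6.14 and 9.01 in WT cDC1, no summit in the full KO cDC1 lists, and 22.5 and 11.3 in WT and 11.4 and 7.94 in KO cDC2. A second Spi1 site, 91078564 to 91078685, was lost in cDC2, with 4.14 and 6.12 in WT, and the full KO cDC2 lists held summits of 2.26 and 4.41 within 1 kb. Lost sites of this list also lay at Bcl11a, Bcl6, Cebpa, Etv6, Irf2, Myb, Prdm1, Runx3 and Zeb1. The Ikzf1 and Spi1 sites lost in cDC1 were thus kept in all 4 cDC2 libraries.

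Maturation and cytokine genes lost 6 of 145 sites in cDC1 (4.14%) and 4 of 112 in cDC2 (3.57%). Beside Il10, the gene of an anti-inflammatory cytokine, 2 neighbouring sites 3789 and 2564 bp from the gene were lost in cDC1. The site at 131016029 to 131016083 (chromosome 1) had 7.37 and 7.69 in WT cDC1 and none in the full KO cDC1 lists. The site at 131017227 to 131017335 had 12.1 and 9.30 in WT and a weaker summit of 5.25 in replicate 2 of KO. No cDC2 library kept a summit in either. Single sites were lost at Pdcd1lg2 (6.88 and 8.49, with 2.79 in replicate 1 of KO), the gene of the checkpoint ligand PD-L2, and at Cd200 (5.47 and 6.88) in cDC1, and at Ccl22 (5.44 and 6.68) and Cd86 (5.75 and 4.83), a costimulatory ligand, in cDC2.

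Of 26 interferon-stimulated genes, 2 of 40 sites were lost in cDC1 and 2 of 51 in cDC2, at Trim30a and Oas1a. Trim30a (chromosome 7) had 2 sites lost in cDC1, with 10.7 and 6.34 and with 5.25 and 6.59 in WT and no summit in the full KO cDC1 lists, and 1 lost in cDC2 with 6.03 and 8.63 and weaker KO summits of 3.01 and 4.89. The cDC2-lost site was among the strong sites of cDC1, at 22.6 and 43.3 in WT and 24.5 and 35.7 in KO. Innate sensing genes lost 1 of 101 and 3 of 96 sites, at Tlr4, Tlr7, Tlr11 and Nlrp3. Cell cycle genes lost 3 of 105 and 1 of 99, among them the site nearest to Cdk6 with 12.7 and 9.78 in WT cDC1, and the BCL2 family lost 3 of 86 and 0 of 89.

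Markers of other cell types were read for cells that the sort could hold. B cell genes had 5 of 20 sites lost in cDC2 (25%) and 0 of 20 in cDC1. The 5 sites lay at Pax5 (4.08 and 5.96, and 4.08 and 4.35), Cr2 (4.48 and 5.58), Ebf1 (4.48 and 5.23) and Blk (3.96 and 2.94), all weak. A KO cDC2 library had a summit in its full list at Blk alone, of 4.91. Gained sites of the list numbered 3 of 22 in cDC1 (13.6%) and 0 of 20 in cDC2. Over the whole list of 10 genes the WT cDC2 libraries had 34 and 32 sites and the KO cDC2 libraries 24 and 29, while WT cDC1 had 27 and 28 and KO cDC1 30 and 26. The sort was lineage-negative and CD11c+, gates that are meant to leave B cells out, and their share in the libraries was not tested.

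For the other markers the counts were small. T cell genes lost 1 of 25 sites in cDC1 and 0 of 27 in cDC2, plasmacytoid genes 0 of 55 and 2 of 64 (both at Runx2), granulocyte genes 0 of 8 and 1 of 10 (at Mmp9), housekeeping genes 0 of 36 and 1 of 30, monocyte and macrophage genes 0 of 41 and 0 of 34, and NK cell genes 0 of 17 and 0 of 18. The T cell list had 36 and 29 sites (WT) and 38 and 38 (KO) in cDC1, and 38 and 39 (WT) and 43 and 50 (KO) in cDC2. The B cell genes were the list with the highest share lost, on 20 sites. In sorted bulk cells, fewer cells of a type and less open chromatin per cell cannot be told apart.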

How the data were processed

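ATAC-seq was made from sorted splenic cDC1 and cDC2 of 4 groups of 2 libraries, grouped by title. The tools named in the submitters' processing notes are Bowtie2, SAMtools, MACS2 and MultiQC, and the build is GRCm38 (mm10); versions, filters and settings are not given in the sources used here. The authors deposited a summit list per library, whose score is a negative log10 p-type value, taken as that of MACS2's q value since every list ends between 1.30 and 1.36.

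The best 61737 summits per library, the length of the shortest list, were kept and chained within 250 bp (python 3.11.15, pandas 2.3.3, numpy 2.4.6, scipy 1.17.1). Sites were called and groups of sites compared by rank, since scores rise with depth. Scores of single sites are printed as values of their own library, and differences in score between libraries were not tested. A KO summit called weaker ranked below those kept in its own library, and its score can exceed that of a WT summit. Genes, spans and promoter windows are from RefSeq GRCm38.p6 tables. Chromosome 18 has no starts there and stays out of start distances and window shares. Starts are also missing on other chromosomes. The nearest listed start was 526364 bp from the lost site inside Kat6a and 614818 bp from one inside Ncoa2. Start distances can thus be too long, and counts of sites in promoter windows too low. The nearest gene is protein-coding and at most 50 kb away. Named were the 20 sites lost in both cell types with the highest mean WT percentile, the 10 strongest lost sites per cell type without a summit in full KO lists, the 10 genes with most lost sites, lost sites nearest to genes of 18 lists, and Hdac1. The promoters printed were chosen after their values were seen. Members, lists and rules were chosen with earlier results of these data known. Other settings of list length, chaining, distance and score, and each library left out, were run, and the script was tested on simulated data. Summits in the full lists were searched within 1 kb of a site, so they may lie beside the site itself. An exon and intron split was not made.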

Additional observations from a re-analysis of the deposited data

How the results depend on the processing

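The counts depend on how many summits are compared. With all deposited summits 1069 sites were lost in cDC1, 780 in cDC2 and 11 in both, and the difference in the other cell type turned to -0.608 (cDC1-lost) and -2.69 points (cDC2-lost). With 30868 summits 1121 and 900 sites were lost. With scores of at least 5 in every library the counts were 1073, 632 and 21, and the cDC1-lost difference was -0.699. With KO summits searched in the full lists they were 358, 657 and 5. With no KO summit within 5 kb they were 916, 834 and 16, and with the site alone searched 2153 in cDC2 and 78 in both. Chaining at shorter or longer distances kept all 3 counts within 1.5 times.

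Without each library in turn, a rule on fewer libraries, the counts ran from 1878 to 5586 in cDC1, from 1423 to 6046 in cDC2 and from 81 to 136 in both, and the differences from 1.29 to 5.43 and from 1.15 to 5.97 points, all toward WT. Pairing libraries by number (the replicate block) left the differences at 3.46 and 4.77 points, at an exact sign-flip p of 0.5, the smallest that 2 pairs allow; the labels do not say what the numbers share.

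The share near a gene's end, the nearest genes and 40 named calls were read under the same settings, chosen after seeing the data. The calls were of sites lost in both cell types and of the strongest lost sites per cell type, with Mrpl38 in each group. Of the 40 calls, 14 held with 30868 summits, 22 with all deposited summits and 11 with no KO summit within 5 kb. The strongest sites per cell type had been chosen for having no summit in the full KO lists. That they all held with all deposited summits follows largely from this choice and is no check of them. Among the calls of sites lost in both cell types, only Mrpl38 and Xlr3b held with all deposited summits. Read depth is unknown, and a site without a summit may still hold reads. The share near a gene's end moved to 10.4% (cDC1) and 13.1% (cDC2) without the 1 kb rule.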
